A study of Mus with 6 samples.

Results

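The genes described here encode voltage-gated potassium (Kv) channels and their auxiliary subunits. Members were the protein-coding genes whose symbol begins with Kcna, Kcnb, Kcnc, Kcnd, Kcnq, Kcnh, Kcnab or Kcnip followed by a number. The rule found 37 genes among 54532 in the deposited table, of which 22046 are protein-coding. Of the 37, 30 encode pore-forming subunits and 7 encode auxiliary subunits. RNA sequencing compared 3 libraries from mice labelled CNTNAP4-KO (KO) with 3 from mice labelled wild type (WT), all labelled male and basolateral amygdala, a region central to fear memory. Cntnap4 encodes a neurexin-like adhesion protein of neurons. The series title also names Lactobacillus reuteri, and no sample given that bacterium was analysed here. The labels give no strain, age, treatment or way in which the gene was disrupted, and they name separate mice only by number. P-values therefore measure the spread between these samples.

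Kv channels open when the membrane depolarises and let potassium leave the cell, which ends the action potential and sets how soon the next can follow. Pore-forming subunits assemble in groups into a channel, and mixing subunits of the same subfamily changes its speed and voltage range. Kv1 channels (Kcna) hold down excitability along axons. Kv2 channels (Kcnb) carry delayed rectifier current in cell bodies and proximal dendrites. Kv3 channels (Kcnc) close fast and let cells such as parvalbumin interneurons fire at high rates, and Kv4 channels (Kcnd) carry fast inactivating A-type current in dendrites. Kv7 channels (Kcnq) carry the M-current, which muscarinic receptors suppress, and the Kcnh genes encode the EAG (Kv10), ERG (Kv11) and ELK (Kv12) families. Kv beta subunits (Kcnab) join Kv1 channels, and the calcium-binding KChIP proteins (Kcnip) join Kv4 channels and raise their number at the surface.

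Values are FPKM as the authors deposited them, read fragments divided by gene length in kilobases and by a total for each library. Libraries held 17647556 to 20813211 reads in genes. The total implied by the values was 0.993, 0.969 and 1.004 times these reads in KO replicates 1 to 3. In WT replicates 1 to 3 it was 1.004, 1.011 and 1.044 times these reads. The total was therefore not a plain count of the reads in genes, and how it was set was not tested. Cntnap4 measured 1.61, 1.00 and 1.48 FPKM in KO replicates 1 to 3, against 2.03, 3.59 and 4.91 FPKM in WT replicates 1 to 3. An exact permutation test (two-sided) gave p = 0.1, the lowest value possible with 3 samples a group, and the limma adjusted p was 0.220. The library labelled KO replicate 1 held 14528 reads of Xist, which silences an X chromosome in female cells, against at most 11 in any other library, and 0 reads on the Y-linked Ddx3y, Eif2s3y, Kdm5d and Uty. KO replicate 2 stood apart in its levels of markers of brain regions. Summed over 5 hypothalamic neuron markers it held 2.51 FPKM, against 1066 and 341 FPKM in KO replicates 1 and 3 and 486 to 953 FPKM in WT. Summed over 7 markers of pallial excitatory neurons, KO libraries held 614, 885 and 597 FPKM in replicates 1 to 3 and WT libraries 339 to 403 FPKM. Over 7 medium spiny neuron markers the sums were 1238, 1472 and 1055 FPKM in KO, against 735 to 982 FPKM in WT, and over 7 oligodendrocyte markers they were 574, 427 and 652 FPKM in KO, against 798 to 1073 FPKM in WT. No listed marker of any cell type was at 0 in every library. Slc17a7, a defining marker of amygdala projection neurons, measured 21.4, 94.3 and 19.1 FPKM in KO, against 5.69, 5.37 and 6.42 FPKM in WT, whereas Ppp1r1b, a gene abundant in striatum, measured 426, 462 and 306 FPKM in KO, against 275, 214 and 254 FPKM in WT. No tissue of known make-up was compared, so the share of the labelled region in each piece was not measured. In bulk tissue, fewer cells of a type and less RNA per cell cannot be told apart.

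Of the 37 genes, 33 averaged 0.5 FPKM or more across all libraries and were tested. The test was limma with a mean-variance trend on log2(FPKM + 0.5), fitted over 16155 genes with Benjamini-Hochberg adjustment over all of them. No Kv gene passed the adjusted threshold of 0.05. The lowest adjusted p among them was 0.199, for Kcna5. Over all genes, 0.00619% passed in each direction. At an unadjusted p under 0.05, 5 Kv genes were higher in KO, beside 8.36% of all genes, and 2 were lower, beside 6.85% of all genes. These counts are 15.2% and 6.06% of the 33. Without KO replicate 2 the counts were 3 higher and 1 lower, beside 7.28% and 5.99% of all genes. Without KO replicate 1, the library with Xist, they were 6 higher and 2 lower, beside 7.56% and 6.28% of all genes.

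The KO and WT values did not overlap for 10 of the 33. In 5, among them Kcnip2, Kcnip3, Kcna5 and Kcnh3, the KO values all exceeded the WT values, as they did for 11.8% of all genes. Kcna3, Kcna6, Kcnc1, Kcnc2 and Kcnh2 had KO values that were all below the WT values, as did 10.8% of all genes. Each set of 5 is 15.2% of the 33, near the share among all genes. When libraries were scaled to the same FPKM sum the split was 2 higher and 4 lower, beside 6.07% and 13.9% of all genes. Kcna5 and Kcnip2 remained higher, Kcna3, Kcna6 and Kcnh2 remained lower, and Kcnip4 joined the lower genes. Some of these genes overlap a gene on the other strand, whose reads cannot be told apart if counting ignored strand. Among these neighbours are Gm26673 at Kcna6 (mean 0.203 FPKM), Gm15589 at Kcnh2 (0.0342 FPKM), Gm27008 at Kcna3 (0.274 FPKM) and Mcrs1, which shares 1 base with Kcnh3.

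**Figure D1:**
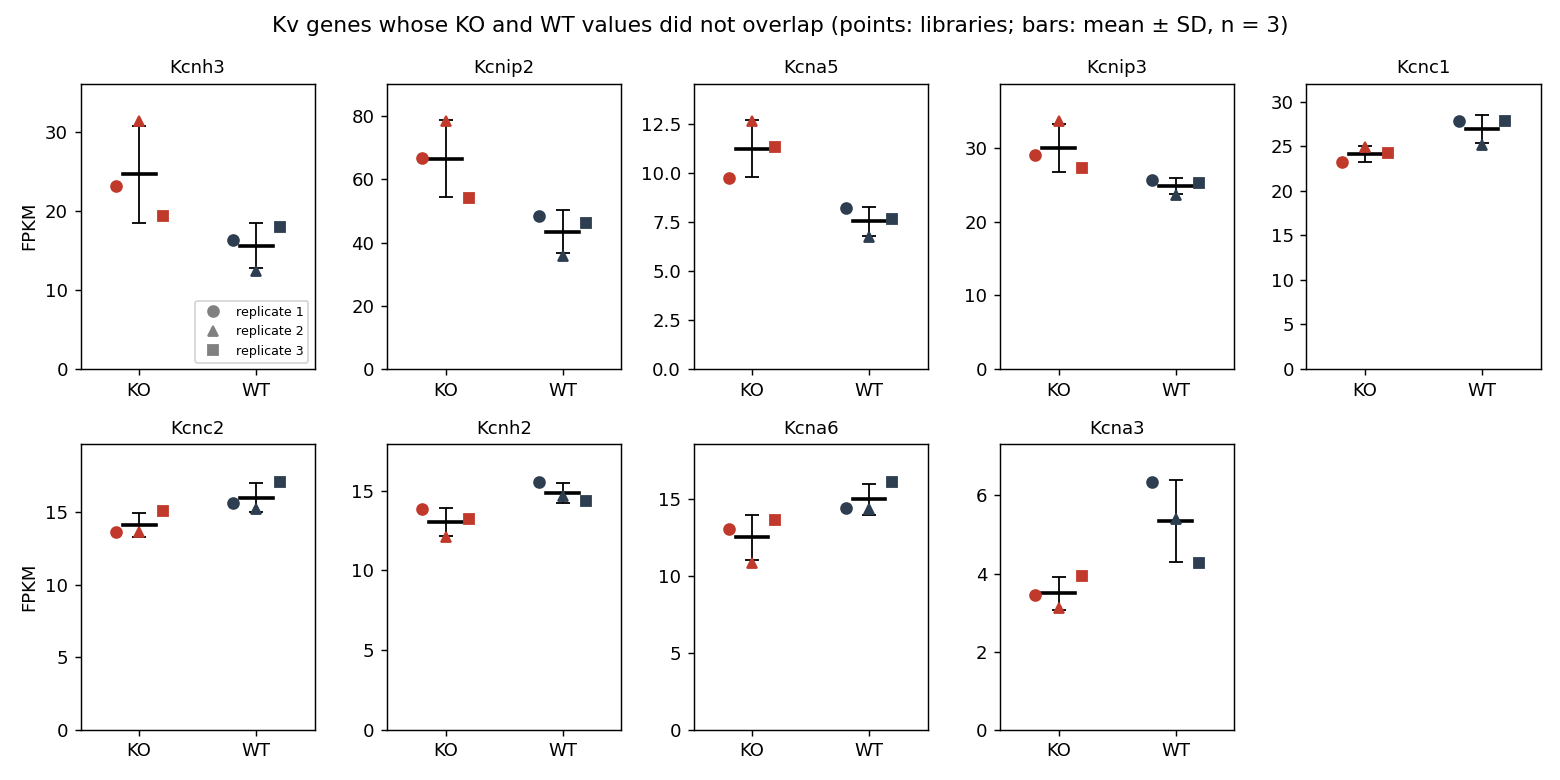
FPKM of 9 Kv genes whose 3 KO and 3 WT values did not overlap, KO left of WT in each panel, with marker shapes for replicates 1 to 3 and bars for mean ± SD (n = 3 each). The first 4 panels hold genes higher in KO, with KO replicate 2 the highest library in each, and the other 5 panels hold genes lower in KO.

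The median log2 difference (KO minus WT) over the 33 genes was 0.09, beside 0.01 over all genes tested, with 20 positive and 13 negative. The range ran from -0.54 for Kcna3 to 0.63 for Kcnh3. Summed over all 37 members the level was 529, 622 and 499 FPKM in KO replicates 1 to 3, against 517, 452 and 485 FPKM in WT replicates 1 to 3. The sums overlapped between the groups, and KO replicate 2 was the highest library.

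That library was the highest of the 6 for 19 of the 33 genes, beside 24.9% of all genes tested, and the lowest for 8, beside 21.3% of all genes. The shares among the 33 are 57.6% and 24.2%. It was singled out after its values were seen. On the log2 scale it lay above the mean of KO replicates 1 and 3 by a median of 0.22 over the 33 genes, beside 0.01 over all genes tested. Single genes ranged from -0.47 for Kcnip1 to 0.82 for Kcnh4. Without it the median KO minus WT difference was -0.02, with 16 positive and 17 negative, and 8 genes took the other sign. Without KO replicate 1 the median was 0.16. KO replicate 2 also had the highest sums of pallial and medium spiny markers given above. In both sums KO replicates 1 and 3 exceeded every WT library too. Leaving out KO replicate 2 therefore keeps a difference in these markers. The part of these cells in the Kv levels was not tested.

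**Figure D2:**
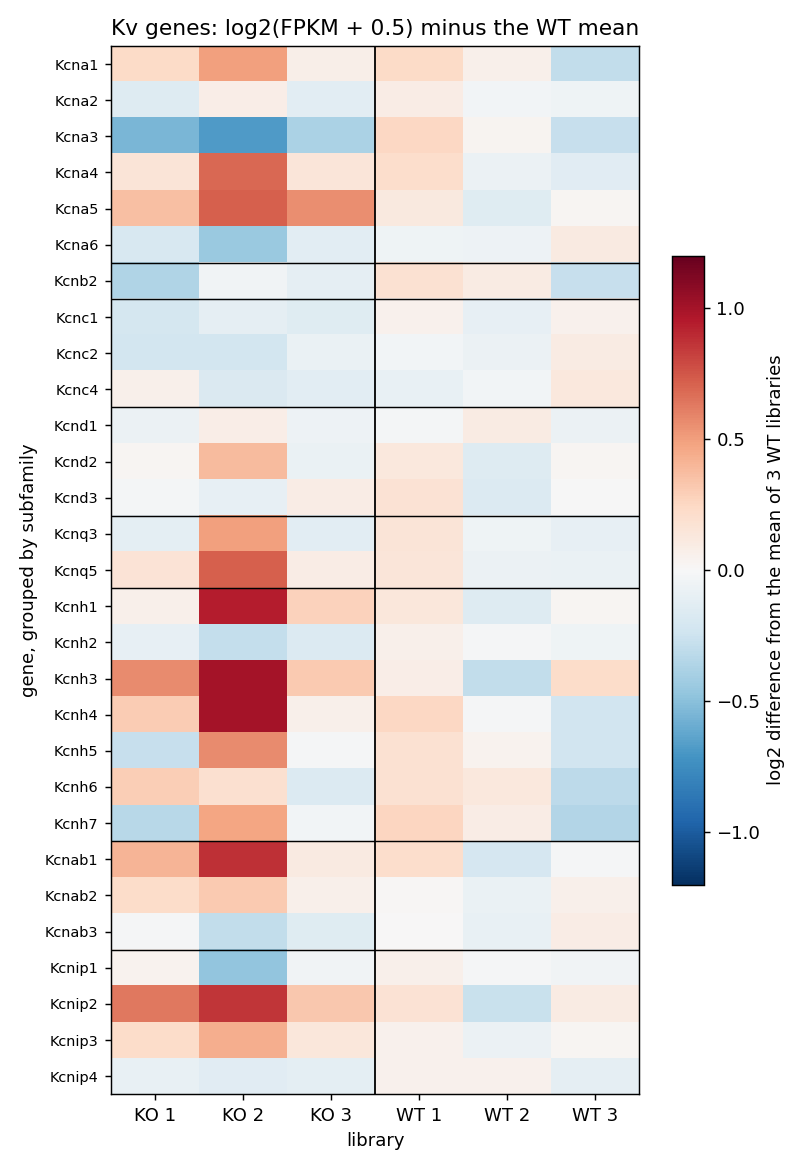
Heat map of log2(FPKM + 0.5) minus the mean of the 3 WT libraries for 29 of the 33 tested Kv genes (rows, grouped by subfamily) in 3 KO and 3 WT libraries (columns). The KO replicate 2 column holds the strongest colours, red for Kcnh1, Kcnh3, Kcnh4 and Kcnab1 and blue for Kcna3, Kcna6 and Kcnip1.

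The Kv1 genes had the widest range of log2 differences of the 8 subfamilies, from -0.54 to 0.55, with 3 positive and 3 negative. Kcna5, which encodes Kv1.5 (chromosome 6, 126532551 to 126535412, minus strand, GRCm38), measured 9.75, 12.6 and 11.3 FPKM in KO replicates 1 to 3, against 8.18, 6.74 and 7.62 FPKM in WT replicates 1 to 3. Every KO library lay above every WT library, and KO replicate 1 was the nearest to WT. The log2 difference was 0.55 ± 0.11 (SE; limma adjusted p = 0.199), and it was 0.46 without KO replicate 2. Kcna3, which encodes Kv1.3, a channel also known from microglia and lymphocytes, measured 3.44, 3.11 and 3.95 FPKM in KO, against 6.36, 5.41 and 4.26 FPKM in WT. The nearest libraries, KO replicate 3 and WT replicate 3, differed by less than the spread within WT. Its log2 difference was -0.54 ± 0.15 (limma adjusted p = 0.223), and -0.46 without KO replicate 2. The gene (chromosome 3, 107036169 to 107038070, plus strand) has a short annotated length and 107 to 223 reads per library. The antisense model Gm27008 spans its whole length. All 5 microglial markers had negative log2 differences, with a median of -0.21. Their mean log2 level was 4.46, 4.29 and 4.36 in KO, against 4.51, 4.62 and 4.59 in WT, so the groups did not overlap, as with Kcna3. Their summed FPKM, to which C1qa adds 60.6 to 84.8 FPKM in KO and 67.0 to 84.0 FPKM in WT, overlapped at 122 to 148 FPKM in KO and 136 to 156 FPKM in WT. Within groups, Kcna3 and the mean log2 level of these markers ranked the libraries differently. In WT, Kcna3 was highest in replicate 1, where the marker mean was lowest. In KO both were lowest in replicate 2, but Kcna3 was highest in replicate 3 and the marker mean in replicate 1. The part of microglia in the Kcna3 level was not tested.

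Kcna6, which encodes Kv1.6 (chromosome 6, 126708329 to 126740674, minus strand), measured 13.1, 10.9 and 13.6 FPKM in KO, against 14.5, 14.4 and 16.2 FPKM in WT. The groups were separated by a gap smaller than the spread within either, and KO replicate 2 was the lowest. The log2 difference was -0.26 ± 0.10 (limma adjusted p = 0.307), or -0.16 without that library. Kcna5, Kcna1 and Kcna6 lie in a row on the minus strand, with gaps of 105 kb and 61.9 kb between them. Kcna5 was higher and Kcna6 lower in KO, whereas Kcna1, which encodes the axonal Kv1.1, lay between them in position and overlapped between groups at 16.4, 19.9 and 14.7 FPKM in KO, against 16.5, 14.5 and 11.3 FPKM in WT. Kcna2, the most abundant Kv1 gene and the partner of Kv1.1 in axons, measured 21.0, 24.9 and 21.5 FPKM in KO, against 25.1, 22.9 and 22.7 FPKM in WT. Its groups overlapped, and the 95% interval of its log2 difference ran from -0.28 to 0.14. Kcna3, Kcna2 and Kcna10 form a similar row on chromosome 3, with gaps of 63.1 kb and 68.1 kb, all on the plus strand. Kcna4, which encodes the inactivating Kv1.4, measured 7.54, 11.2 and 7.51 FPKM in KO, against 7.87, 6.37 and 6.09 FPKM in WT. Only KO replicate 2 lay above the WT range.

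Shares of the summed FPKM of the Kv1 subfamily were apart for some genes whose levels overlapped, and the reverse. Kcna5 held 13.6%, 15.3% and 15.6% of it in KO replicates 1 to 3, against 10.4%, 9.58% and 11.2% in WT replicates 1 to 3. Kcna3 held 4.81%, 3.76% and 5.43% in KO, against 8.10%, 7.68% and 6.25% in WT. Kcna2 held 29.4% to 30.1% in KO, against 32.0% to 33.3% in WT, and Kcna4 held 10.3% to 13.5% in KO, against 8.94% to 10.03% in WT. The groups did not overlap in any of these 4 shares, although the levels of Kcna2 and Kcna4 overlapped. The share of Kcna1 overlapped, at 20.2% to 24.1% in KO and 16.6% to 21.0% in WT. Shares within a subfamily depend on each other, because a rise in any gene lowers the shares of the rest. The 4 are therefore not separate results, and they have no background over all genes. The shares of Kcna6, whose levels were apart, overlapped at 18.3%, 13.2% and 18.8% in KO, against 18.4%, 20.4% and 23.7% in WT. The summed level of the subfamily did overlap, at 75.6 ± 6.11 FPKM in KO and 72.3 ± 5.45 FPKM in WT (SD, n = 3 each).

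Of the Kv2 genes, Kcnb2, which encodes Kv2.2, was at 1.50 ± 0.230 FPKM in KO and 1.76 ± 0.369 FPKM in WT, with overlapping groups. Its log2 difference was -0.17, with a 95% interval from -0.55 to 0.22.

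Kcnc1 and Kcnc2 had small negative differences, and their groups were only just apart. Kcnc1, which encodes Kv3.1 of fast-spiking cells (chromosome 7, 46396497 to 46438704, plus strand), measured 23.2, 24.9 and 24.3 FPKM in KO, against 27.8, 25.1 and 27.8 FPKM in WT. KO replicate 2 and WT replicate 2 were the nearest libraries. The log2 difference was -0.15 ± 0.07 (limma adjusted p = 0.374). Kcnc2, which encodes Kv3.2 (chromosome 10, 112271121 to 112467024, plus strand), measured 13.7, 13.6 and 15.1 FPKM in KO, against 15.7, 15.2 and 17.1 FPKM in WT, with a log2 difference of -0.18 ± 0.08 (limma adjusted p = 0.350). Neither gene kept apart groups after rescaling to an equal FPKM sum. Relative to KO replicates 1 and 3, KO replicate 2 differed by 0.07 for Kcnc1 and -0.07 for Kcnc2 on the log2 scale. The parvalbumin gene Pvalb, a marker of the cells that use Kv3 channels, measured 41.8, 32.9 and 56.9 FPKM in KO and 47.2, 58.0 and 60.2 FPKM in WT. Its groups overlapped. Lhx6, a transcription factor gene of the same lineage, measured 12.5, 9.66 and 10.4 FPKM in KO and 13.6, 12.6 and 12.6 FPKM in WT, with every KO library below every WT library. The nearest libraries, KO replicate 1 and WT replicate 2, differed by less than the spread within KO. Of the 5 genes listed as markers of fast-spiking interneurons, 4 had negative log2 differences, and the median was -0.25. Tac1 had a positive one, of 0.48, and its KO libraries ranked in the same order as the medium spiny marker sums. Syt2 and Erbb4, also among the 5, had overlapping groups. The mean log2 level of the 5 genes was 4.48, 4.40 and 4.52 in KO, against 4.60, 4.51 and 4.63 in WT, with overlapping groups. Their summed FPKM, to which Tac1 adds 61.0 to 79.9 FPKM in KO and 40.8 to 58.6 FPKM in WT, was 148 to 154 FPKM in KO and 139 to 161 FPKM in WT. The part of these cells in the Kv3 levels was not tested. Kcnc4 (Kv3.4) was at 16.7 ± 1.53 FPKM in KO and 17.7 ± 1.40 FPKM in WT, with overlapping groups.

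The Kv4 pore genes overlapped between groups, as did Kcnip1 and Kcnip4 of the KChIP genes, while Kcnip2 and Kcnip3 did not. Kcnd2, which encodes Kv4.2, the dendritic A-type subunit, measured 24.8, 32.0 and 23.0 FPKM in KO replicates 1 to 3, against 26.7, 21.9 and 24.9 FPKM in WT replicates 1 to 3. KO replicate 2 alone was above the WT range. The log2 difference of 0.11 ± 0.14 (limma adjusted p = 0.744) was -0.03 without that library, and its 95% interval ran from -0.22 to 0.43. Kcnd3 (Kv4.3) measured 10.3, 9.74 and 11.2 FPKM in KO, against 11.9, 9.29 and 10.4 FPKM in WT, with an interval from -0.26 to 0.23. Kcnd1 (Kv4.1), the X-linked member, was at 2.62 ± 0.194 FPKM in KO and 2.66 ± 0.200 FPKM in WT. In KO replicate 1, the library with Xist, it measured 2.49 FPKM, just under the WT range of 2.50 to 2.88 FPKM.

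Kcnip2, which encodes KChIP2, was the most abundant KChIP gene and ranked 798 of all genes by mean FPKM. It measured 66.9, 78.5 and 54.2 FPKM in KO, against 48.5, 35.8 and 46.1 FPKM in WT (chromosome 19, 45791839 to 45816061, minus strand). All KO libraries lay above all WT libraries, with KO replicate 3 the nearest. The log2 difference was 0.60 ± 0.17 (limma adjusted p = 0.220), and 0.48 without KO replicate 2. The summed medium spiny markers ranked all libraries in the same order as Kcnip2. These sums were 1238, 1472 and 1055 FPKM in KO replicates 1 to 3, against 982, 735 and 956 FPKM in WT replicates 1 to 3. The part of medium spiny neurons in the Kcnip2 level was not tested. Kcnip3, which encodes KChIP3, also known as the calcium-dependent repressor DREAM, measured 29.0, 33.7 and 27.2 FPKM in KO, against 25.7, 23.5 and 25.2 FPKM in WT (chromosome 2, 127456498 to 127522094, minus strand). The order of all libraries was the same as for Kcnip2, and the log2 difference was smaller, at 0.26 ± 0.09 (limma adjusted p = 0.279). After rescaling to an equal FPKM sum, the Kcnip3 groups overlapped. Kcnip4, which encodes KChIP4, was at 16.0 ± 0.295 FPKM in KO and 17.3 ± 1.12 FPKM in WT, with overlapping groups. Kcnip1 measured 6.26, 4.23 and 5.87 FPKM in KO, against 6.32, 5.98 and 5.86 FPKM in WT, and only KO replicate 2 lay well below the rest. Kcnip2 made up 56.5%, 59.4% and 52.5% of summed KChIP FPKM in KO replicates 1 to 3, against 49.3%, 43.0% and 49.5% in WT replicates 1 to 3, and Kcnip4 made up 13.7%, 11.9% and 15.4% in KO, against 18.2%, 21.6% and 17.2% in WT. The groups did not overlap in either share. These shares depend on each other, because a higher Kcnip2 level lowers the Kcnip4 share.

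Of the Kv7 genes, Kcnq3, which encodes an M-channel subunit, measured 11.0, 17.0 and 10.9 FPKM in KO, against 13.3, 11.5 and 11.2 FPKM in WT. KO replicate 2 was the highest library and the other KO values lay below the WT range. The log2 difference was 0.08, and -0.12 without KO replicate 2. Kcnq5 (Kv7.5) was at 10.7 ± 2.78 FPKM in KO and 8.28 ± 0.790 FPKM in WT, with overlapping groups and KO replicate 2 again the highest library.

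Among the Kcnh genes, the ELK gene Kcnh3 and the ERG gene Kcnh2 stood on opposite sides. Kcnh3, which encodes Kv12.2, a forebrain channel open near resting potential (chromosome 15, 99224861 to 99242817, plus strand), measured 23.2, 31.5 and 19.4 FPKM in KO, against 16.4, 12.5 and 18.0 FPKM in WT. KO replicate 3 and WT replicate 3 were close, and KO replicate 2 was the highest. After rescaling to an equal FPKM sum, the Kcnh3 groups overlapped. The log2 difference was 0.63 ± 0.20 (limma adjusted p = 0.254), or 0.44 without KO replicate 2. Kcnh2, which encodes Kv11.1, the channel of cardiac repolarisation that neurons also use (chromosome 5, 24319589 to 24351604, minus strand), measured 13.9, 12.1 and 13.2 FPKM in KO, against 15.6, 14.7 and 14.4 FPKM in WT. Its log2 difference was -0.18 ± 0.08 (limma adjusted p = 0.329), and -0.13 without KO replicate 2. Kcnh3 made up 40.7%, 40.3% and 36.46% of summed Kcnh FPKM in KO, against 30.4%, 27.2% and 36.48% in WT, so the shares of KO replicate 3 and WT replicate 3 overlapped.

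KO replicate 2 was the highest library for 4 other Kcnh genes. Kcnh4 (Kv12.3) measured 5.80, 9.70 and 4.82 FPKM in KO, against 5.55, 4.56 and 3.86 FPKM in WT. Kcnh1 (Kv10.1, the EAG channel) measured 8.29, 15.6 and 9.65 FPKM in KO, against 8.77, 7.03 and 8.02 FPKM in WT. In each, KO replicate 2 was far above the other 5 libraries, and leaving it out moved the log2 difference to 0.18 for Kcnh4, where it had been 0.45, and to 0.17 for Kcnh1, where it had been 0.43. Kcnh5 (Kv10.2), at 1.95, 3.91 and 2.43 FPKM in KO, and Kcnh7 (Kv11.3), at 1.66, 3.29 and 2.17 FPKM in KO, were also highest in that library. Their WT values were 2.87, 2.56 and 2.03 FPKM for Kcnh5 and 2.77, 2.40 and 1.64 FPKM for Kcnh7. Kcnh6 (Kv11.2) was at 1.64 ± 0.345 FPKM in KO and 1.50 ± 0.356 FPKM in WT.

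The Kv beta genes were led by Kcnab2, the most abundant Kv gene, which ranked 667 of all genes. It encodes the cytoplasmic Kv beta subunit that carries Kv1 channels to axons, and it measured 70.4, 75.1 and 62.6 FPKM in KO, against 60.6, 57.1 and 62.9 FPKM in WT. The groups overlapped only in KO replicate 3 and WT replicate 3, and the log2 difference was 0.20 ± 0.09 (limma adjusted p = 0.353). Kcnab1, whose beta subunit speeds inactivation of Kv1 channels, measured 24.8, 34.6 and 20.1 FPKM in KO, against 21.7, 16.2 and 18.5 FPKM in WT. KO replicate 3 fell within the WT range, and the log2 difference of 0.46 ± 0.20 (limma adjusted p = 0.342) was 0.26 without KO replicate 2. Kcnab3 was at 15.0 ± 1.49 FPKM in KO and 16.6 ± 1.02 FPKM in WT.

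**Figure D3:**
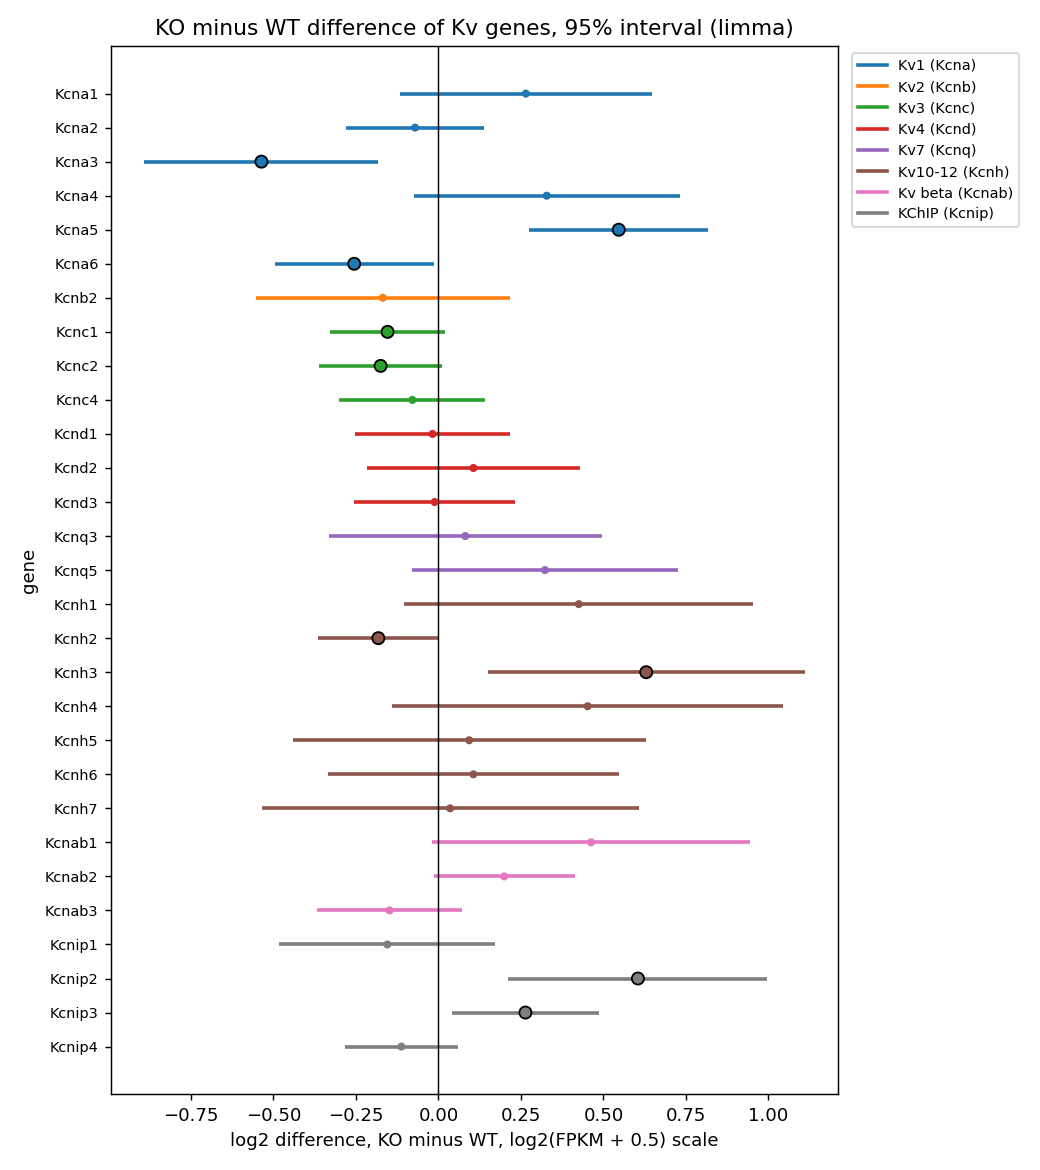
Log2 difference (KO minus WT, horizontal axis) of 29 of the 33 tested Kv genes (vertical axis), as points with 95% limma intervals not adjusted for the number of genes, coloured by subfamily; larger outlined points are genes whose groups did not overlap. The widest interval is that of Kcnh4, and no gene passed the adjusted threshold.

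The 4 members below the test's minimum were Kcna7, Kcna10, Kcnh8 and Kcnq1. Kcnh8 (Kv12.1) had 19, 9 and 18 reads in KO replicates 1 to 3, against 21, 42 and 39 reads in WT replicates 1 to 3, or 0.222, 0.109 and 0.223 FPKM in KO, against 0.250, 0.512 and 0.394 FPKM in WT. All KO values were below all WT values, but the counting intervals of KO replicate 1 (0.133 to 0.346 FPKM, 95% Poisson) and WT replicate 1 (0.155 to 0.382 FPKM) overlapped. Kcnq1, a cardiac and epithelial channel gene, had 6 to 9 reads in KO and 11 reads in each WT library. Kcna10 had 1 to 4 reads in KO and 0 to 2 in WT. Kcna7 had 7, 0 and 1 reads in KO and 0, 1 and 0 in WT, and a count of 0, taken as a limit of 3 reads, allows up to 0.0760 FPKM in KO replicate 2 and up to 0.0745 and 0.0632 FPKM in WT replicates 1 and 3. At this depth no difference was detectable in Kcna7 or Kcna10.

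Other genes of the same channels were taken from a list of 28 symbols chosen for their role. It held subunits that form no channel alone and modify Kv2 (Kcns, Kcng, Kcnf and Kcnv), the small Kcne subunits, the Kv4 partners Dpp6 and Dpp10, the Kv2 partner Amigo1, and adhesion and scaffold genes of Kv1 complexes. The table held 27 of them, with Kcne5 under its older symbol Kcne1l alone, and 23 were tested. None passed the adjusted threshold, and the lowest adjusted p was 0.187, for Kcns1. At an unadjusted p under 0.05, 8 were higher in KO, or 34.8% of the 23, beside 8.36% of all genes. Of the 23, 1 was lower, beside 6.85% of all genes. The median log2 difference was 0.11, and 0.07 without KO replicate 2. The groups did not overlap for 7 higher genes, or 30.4% of the 23 beside 11.8% of all genes. They did not overlap for 1 lower gene, beside 10.8% of all genes.

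Of those 7, 6 were among the 9 tested modifying subunits of Kv2, whose median log2 difference was 0.42, and 0.25 without KO replicate 2. Kcns1, which encodes Kv9.1, measured 3.29, 4.66 and 3.06 FPKM in KO replicates 1 to 3, against 2.14, 1.64 and 1.85 FPKM in WT replicates 1 to 3. Every KO library lay well above every WT library, with a log2 difference of 0.80 ± 0.16 (limma adjusted p = 0.187), and 0.63 without KO replicate 2. Kcng2 measured 2.31, 1.96 and 2.10 FPKM in KO, against 1.60, 1.30 and 1.23 FPKM in WT, and here KO replicate 2 was the lowest KO library. Its log2 difference of 0.49 ± 0.12 (limma adjusted p = 0.207) was 0.53 without that library. Kcng1 (0.60), Kcnf1 (0.42), Kcns2 (0.39) and Kcnv1 (0.55) were the others, each highest in KO replicate 2, whereas Kcng3 (-0.12), Kcng4 (-0.19) and Kcns3 (-0.06) had overlapping groups. The 12 tested partners and scaffold genes had a median of 0.09. Dlg4, which encodes the scaffold PSD-95 that clusters Kv1 channels, was the 1 higher gene among them, at 48.4 ± 5.14 FPKM in KO and 38.3 ± 3.32 FPKM in WT. Cntn2, whose protein holds Kv1 channels beside the node of Ranvier, was the 1 lower gene, at 17.9 ± 1.21 FPKM in KO and 22.9 ± 1.60 FPKM in WT. Cntnap2, its partner there and a relative of Cntnap4, overlapped between groups at 20.5, 19.7 and 17.8 FPKM in KO, against 23.1, 19.4 and 19.0 FPKM in WT. Dpp6, at 23.3 ± 0.956 FPKM in KO and 21.6 ± 1.29 FPKM in WT, and Amigo1, at 21.9 ± 1.21 FPKM in KO and 21.4 ± 1.11 FPKM in WT, overlapped as well.

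**Figure D4:**
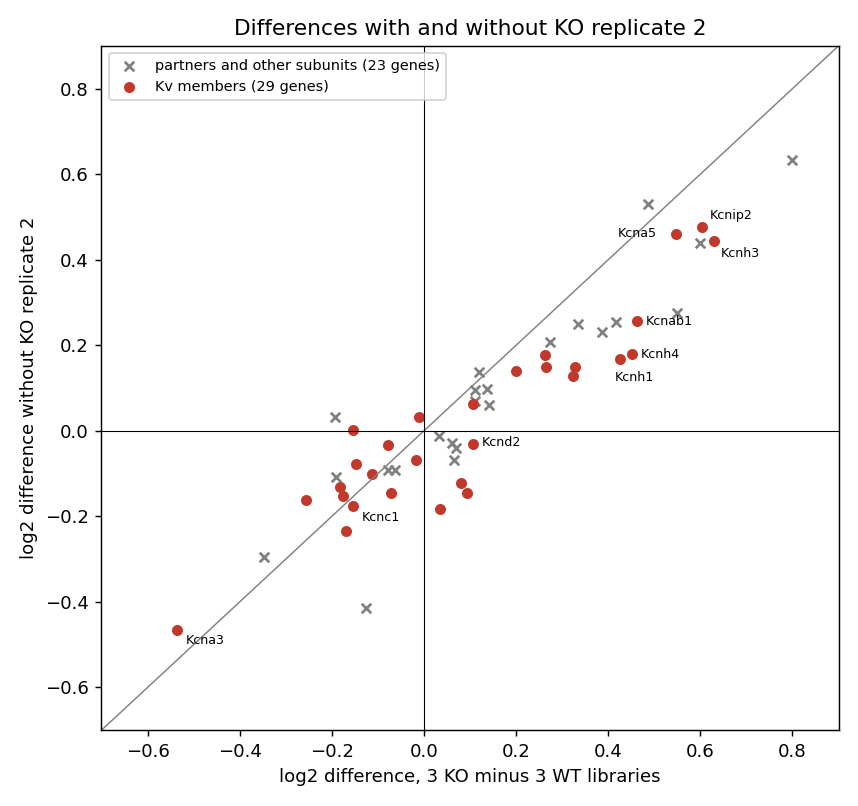
Log2 difference (KO minus WT) over all 6 libraries (horizontal axis) against the same without KO replicate 2 (vertical axis), for 29 of the 33 tested Kv genes (red points) and the 23 other genes (grey crosses); the grey line marks equal values. Kcnh1, Kcnh4 and Kcnab1 lie well below the line, whereas Kcna3, Kcna5 and Kcnip2 lie nearer to it.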

How the data were processed

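The authors deposited 1 table of FPKM values for 54532 genes, with symbol, coordinates, biotype and gene length. Per the submitters' processing notes the build was GRCm38 (mm10). Not given in the sources used here: the aligner, counting program, annotation release and use of strand. Levels of different genes are comparable only as far as the deposited gene lengths fit the transcripts present. FPKM times gene length gave whole reads for 100% of nonzero values within 0.01 read, and these were used for depth and for 1 alternative. Tested members had 74 to 9796 reads per library, and without molecular identifiers the Poisson intervals and 3-read limits describe counting error alone.

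Genes were fitted with limma 3.58.1 in R 4.3.3 (trend, robust) on log2(FPKM + 0.5), for genes averaging 0.5 FPKM or more. This scale understates differences of low genes. The fit was tested on simulated reads. These held no differences in tissue mix between libraries, and their changes were larger than the Kv differences here. That test therefore does not show how the fit performs on these libraries. The exact test used scipy 1.17.1. Members and lists were chosen with earlier results of these data known. Full values were given, by rule, for members past the threshold or whose groups did not overlap, the most abundant of each subfamily and the 4 largest differences in each direction; other genes were named after their values were seen. Counts and medians cover all members, of which 4 are not reported here singly. Per-library values carry no pooling, and all sample columns were matched by name. Same-numbered KO and WT libraries did not deviate together across genes, and the samples were fitted as unpaired. Such correlations cannot exclude a pairing, because the levels of tissue markers also differed between libraries. The fit was repeated with pseudocounts of 0.1 or 1, without a filter, with a minimum of 5 FPKM, equal FPKM sums, median-ratio factors, a replicate block, voom on reads with trimmed-mean (TMM) factors, protein-coding genes only and each library left out.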

Additional observations from a re-analysis of the deposited data

How the results depend on the processing

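No Kv gene passed under any of the 15 alternatives, and the lowest limma adjusted p of any was 0.112 (Kcna5, voom). With median-ratio factors the median difference over Kv genes was 0.0874, the same as in the main fit. That alternative nearly repeats the main fit and is no separate check. Over all genes, where 2 passed, 0 passed with a pseudocount of 0.1, no filter, a minimum of 5 FPKM, the replicate block, voom or protein-coding genes only, and 5 after rescaling to an equal FPKM sum, and 0 to 9 without single libraries. Kv genes higher in KO without overlap numbered 2 of 33 after the equal-sum rescaling, beside 6.07% of all genes. Without single libraries they numbered 5 to 12 of 33, beside 15.2% to 18.8% of all genes. Lower ones numbered 5 to 8 of 33 without single libraries, beside 13.9% to 17.5% of all genes. The 12 higher came without WT replicate 1, and 10 higher came without KO replicate 3, beside 17.2% of all genes in each. The 8 lower came without KO replicate 1, beside 15.9% of all genes. With 2 against 3 libraries such counts are larger for all genes too. At an unadjusted p under 0.05, 3 of 33 were higher with equal sums and 3 with the replicate block, beside 4.09% and 5.66% of all genes. Without single libraries 2 to 9 were higher, beside 5.36% to 7.74% of all genes. With a minimum of 5 FPKM 1 of 26 was lower, and with voom 4 of 33, beside 7.04% and 7.94% of all genes. Without single libraries 1 to 3 were lower, beside 4.06% to 6.69% of all genes. The extremes were 2 higher without WT replicate 2 and 9 without KO replicate 3, beside 5.36% and 7.74% of all genes. The median over Kv genes ran from -0.02 to 0.17 without single libraries. Without single libraries the Kcnd2 difference ranged from -0.032 to 0.20, negative only without KO replicate 2, and the other 193 alternative values of the 13 genes given in full kept their sign and side of the threshold. Same-numbered KO and WT libraries deviated with correlations of -0.09, -0.14 and -0.07 across genes, which cannot exclude a pairing. Under the block the lowest limma adjusted p of a Kv gene was 0.433.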

Other observations

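Ratios of 2 Kv genes within a library do not depend on how libraries are scaled. The pairs here were chosen after their values were seen and were not tested. The ratio of Kcna5 to Kcna3 in FPKM was 2.84, 4.07 and 2.86 in KO replicates 1 to 3, against 1.29, 1.25 and 1.79 in WT replicates 1 to 3. The ratio of Kcna5 to Kcna6, which lie in the same gene row on chromosome 6, was 0.747, 1.16 and 0.828 in KO, against 0.566, 0.469 and 0.471 in WT. For the KChIP genes Kcnip2 and Kcnip4 it was 4.11, 5.01 and 3.40 in KO, against 2.70, 1.99 and 2.88 in WT. That the groups lie apart in the ratios of Kcna5 to Kcna3 and to Kcna6 follows from the levels of these genes, which had no overlap and opposite directions.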
